A study of Homo sapiens with 2 samples.

Results

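The genes described here encode the machinery that opens and copies DNA: the helicase subunits MCM2, MCM3, MCM4, MCM5, MCM6 and MCM7, the sliding clamp PCNA and the topoisomerase TOP2A. Their RNA was looked for among sites crosslinked to SOX2, a reprogramming factor that binds DNA through its HMG box. Sites belonged to a gene when they overlapped a fixed interval around it on the gene's strand, in hg19 coordinates. This gave 20 of the 16964 sites listed in replicate 1 and 105 of the 55830 sites listed in replicate 2, spread over all 8 genes in both lists.

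The data came from PAR-CLIP, a method that feeds cells a light-sensitive uridine analogue: ultraviolet light then ties RNA to the protein it touches, and the RNA pulled down with that protein is sequenced. Both libraries were made from HEK293T cells, a human embryonic kidney line carrying the SV40 large T antigen. These cells had been transfected to express FLAG-tagged SOX2 and were given 0.2 mM 4-thiouridine, starting 24 hours after transfection, for 16 hours before irradiation at 365 nm. They form 1 group of 2 replicates, described as independent experiments, so the protein was supplied from a plasmid in every sample. No control library and no RNA level was used, so more SOX2 contact and more RNA of a gene cannot be told apart.

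Replication proteins act in a fixed order. The MCM proteins form a ring of 6 different subunits that is loaded on DNA before S phase and unwinds it as the core of the replicative helicase. PCNA is a ring that holds DNA polymerases on their template, and TOP2A passes DNA strands through each other to untangle the copies. Transcription of many of these genes increases as cells enter S phase, under E2F factors.

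The lists differed in size, with 3.29-fold more sites in replicate 2. Each site carried a score, a whole number of at least 5; no source used here says what it counts. The score sum was 5365592 for replicate 1 and 5192778 for replicate 2. Read depth is unknown, and all intervals below cover counting error over sites only. The 8 genes took 0.118% of the sites of replicate 1 (95% Wilson interval 0.0763 to 0.182) and 0.188% of those of replicate 2 (0.155 to 0.228). In score they took 0.0265% and 0.117% of the list sums. These shares differ more between the lists for score than for number of sites.

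The intervals held no site on the strand opposite the gene. Members were picked by strand, so the opposite strand of the same intervals was counted apart. It held 0 sites in either list, beside 20 on the gene strand in replicate 1 and 105 in replicate 2. A count of 0 allows up to 15% of sites on the opposite strand in replicate 1 and up to 2.86% in replicate 2. In the whole lists, neighbouring sites at most 10 kb apart were on the same strand in 88.0% of cases in replicate 1 and 93.6% in replicate 2. Genes on the opposite strand overlap MCM2 (TPRA1 and AC023593.1) and MCM7 (AP4M1) in the GENCODE 29 gene models. These models list none over the other members, and whether the opposite strand was transcribed in these cells was not measured. The count of 0 may therefore say little about the other members.

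Most flanks of the intervals held few or no sites, except downstream of MCM5. Over 181 kb, the intervals held 0.110 sites per kb in replicate 1 and 0.579 in replicate 2, a mean of 0.345 ± 0.332 (SD, n = 2). Windows of the same length on each side, on the same strand, held 5 sites in replicate 1 (0.0138 per kb) and 22 in replicate 2 (0.0607 per kb). Taken as a sum, the intervals were 8.0-fold and 9.54-fold denser than the flanks. The genes were chosen with earlier results of these data known, which may favour a high fold. Of the 22 flank sites of replicate 2, 20 lay downstream of MCM5, where the flank held 0.800 sites per kb, more than the 0.640 of the MCM5 interval itself. Without that flank, chosen after its count was seen, 5 flank sites remained in replicate 1 and 2 in replicate 2 over 337.5 kb (0.0148 and 0.00593 per kb). No flank site was listed for 4 genes in replicate 1 and 6 genes in replicate 2. In replicate 1 the interval counts rest on 1 or 2 sites for every gene but MCM7, and MCM5 had 1 site in its interval and 1 in its upstream flank. Averaged over both strands of the nuclear chromosomes, the lists held 0.00276 and 0.00911 sites per kb, a figure that includes all untranscribed sequence. The flanks may hold other genes.

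**Figure D1:**
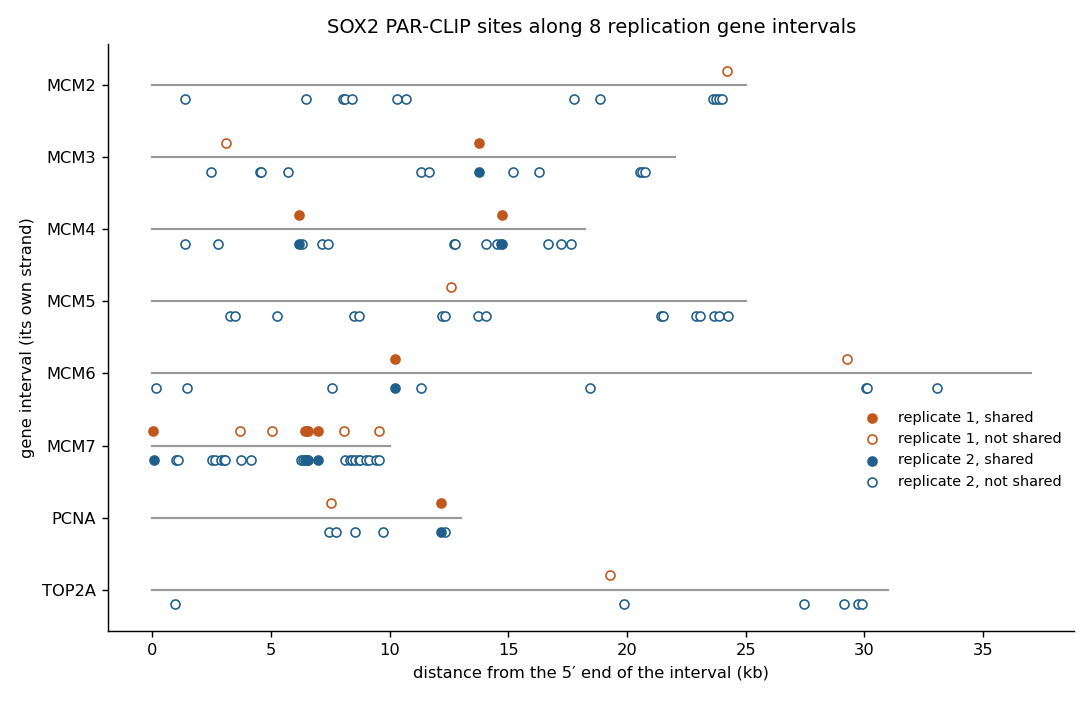
Position of each site in kb from the 5′ end of its gene interval, with replicate 1 (orange) above and replicate 2 (blue) below each line; filled points overlap a site of the other replicate and open points do not. MCM7 carries 9 and 28 sites in the shortest interval, and the filled points fall in MCM3, MCM4, MCM6, MCM7 and PCNA.

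MCM7 stood apart in density. Its 10 kb interval held 9 sites in replicate 1 and 28 in replicate 2, or 0.900 and 2.80 per kb, with exact Poisson 95% intervals of 0.411 to 1.71 and 1.86 to 4.05. It supplied 45.0% of the members' sites in replicate 1 and 26.7% in replicate 2. In replicate 2 its interval lay wholly above those of the other 7 genes, whose highest upper bound was 1.36 for MCM4. In replicate 1 it overlapped the interval of PCNA, which reached 0.556, and of no other member. These intervals treat sites as independent counts, which sites of the same RNA are not, so they may be too narrow. For example, 5 of the 28 MCM7 sites of replicate 2 shared the same group in their names.

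Among all 10 kb windows of a fixed grid that held a site on a strand, few were as dense. In replicate 1, 14 of 12912 such windows (0.108%) held at least 9 sites, and in replicate 2, 10 of 25262 (0.0396%) held at least 28. The median window held 1 site in both lists. The MCM7 interval coincides with a window of this grid, so it is itself counted among the 14 and the 10.

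After MCM7, the order of densities in replicate 2 was MCM4 with 0.822 sites per kb, MCM5 with 0.640, MCM3 with 0.545, MCM2 with 0.520, PCNA with 0.462, MCM6 with 0.243 and TOP2A with 0.194. Neighbours in this order had overlapping intervals, so their ranks are not separated by counting error. The interval of TOP2A (0.0710 to 0.421) lay below that of MCM4 (0.460 to 1.36), again with sites taken as independent. These are the 2 ends of the order, compared after it was seen, a choice that favours a gap. In replicate 1 these 7 genes had 1 or 2 sites each, between 0.0323 per kb for TOP2A and 0.154 per kb for PCNA, and no order among them could be read. Densities are per kb of gene interval, introns included.

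**Figure D2:**
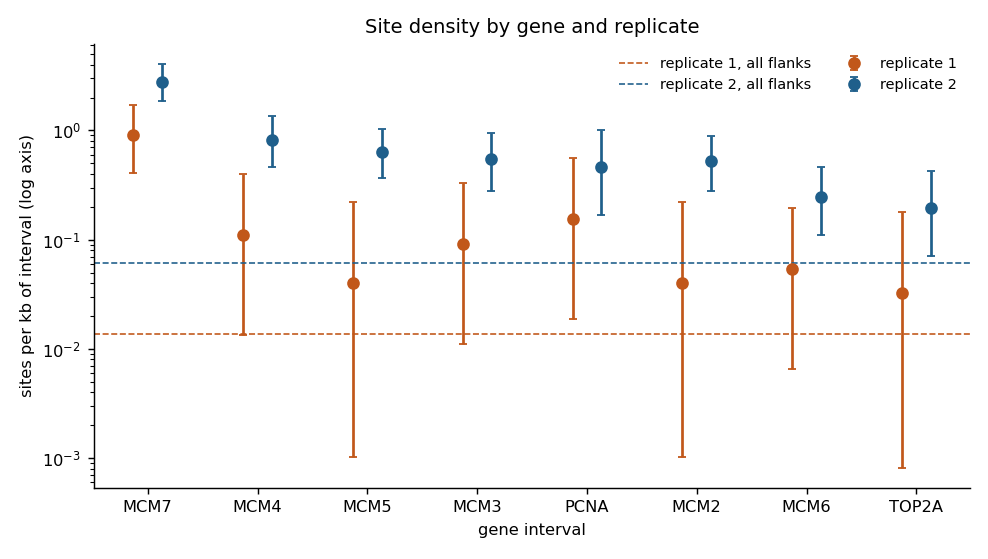
Sites per kb of interval (log axis) for each gene and replicate, with exact Poisson 95% intervals; genes run by mean density and dashed lines mark the summed flanks of all genes. MCM7 is highest in both replicates, at 0.900 and 2.80 sites per kb.

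Member sites were about as long as other sites and scored above the middle of their lists. In replicate 1 they had a median of 16 nt, as did the whole list, and a maximum of 27 nt. In replicate 2 the median was 18 nt, against 17 nt in the whole list, and the maximum 40 nt. The median score was 45 in the members of replicate 1, against 26 in the whole list, and 15 of 20 members exceeded that list median. In replicate 2 it was 39 against 19, and 74 of 105 members exceeded it. The highest member score was 335 in replicate 1 and 312 in replicate 2. Scores of at least 100 made up 15.0% of member sites against 14.8% of the list in replicate 1, and 19.05% against 7.34% in replicate 2. Without MCM7 the median scores were 54 and 31, and 0 of 11 sites in replicate 1 and 11 of 77 in replicate 2 reached 100.

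Of the member sites, 10 in replicate 1 and 10 in replicate 2 overlapped each other on the same strand by at least 1 nt, as 10 pairs. This was 50.0% of the 20 sites of replicate 1 (interval 29.9 to 70.1), against 21.3% of that whole list. For replicate 2 it was 9.52% of 105 sites (5.26 to 16.7), against 6.50% of the whole list. Overlap depends on score, so the whole lists were also weighted to the members' score classes, which gave 26.7% in replicate 1 and 10.2% in replicate 2. The share in replicate 1 lay above this value and the share in replicate 2 did not. The weighting did not match how densely the other list covered a region, so it is not a full adjustment.

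MCM7 held 5 of the 10 pairs. Without it, 5 of 11 sites of replicate 1 were shared (45.5%, interval 21.3 to 72.0) and 5 of 77 of replicate 2 (6.49%, 2.80 to 14.3). The share in replicate 2 was then at the level of the whole list. Against the same score classes the values for these 7 genes were 26.01% and 8.78%, both inside the intervals.

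Replicate 1 sites that did not overlap still lay near sites of replicate 2. All 20 had a same-strand site of replicate 2 within 1 kb (interval 83.9% to 100%), against 53.3% of the whole list. Replicate 2 held 0.579 sites per kb in these gene intervals. The list share was not matched on that density, so nearness alone does not measure agreement between replicates. The 10 unshared sites were 4 to 891 nt away, with a median of 196 nt. Seen from replicate 2, 49 of 105 sites (46.7%, 37.4 to 56.2) had a site of replicate 1 within 1 kb, against 29.5% of the list. Without MCM7 this was 24 of 77 (31.2%, 21.9 to 42.2), near the list value.

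**Figure D3:**
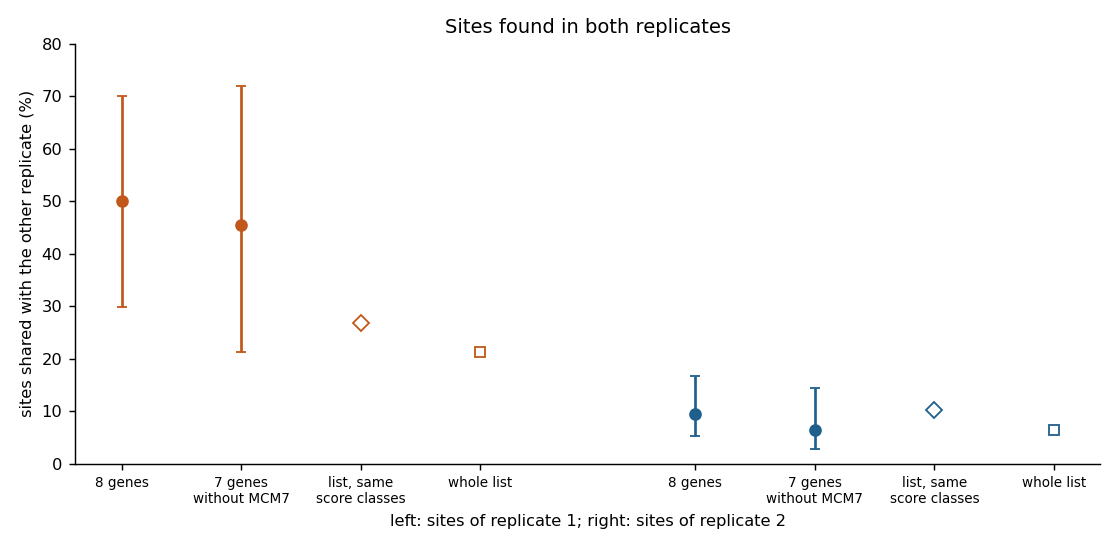
Share of sites that overlap a site of the other replicate, for replicate 1 (orange, left) and replicate 2 (blue, right); bars are 95% Wilson intervals, diamonds the whole list weighted to the members' score classes, squares the whole list. The members of replicate 1 reach 50.0% against 21.3% for the list, while those of replicate 2 reach 9.52% against 6.50%.

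Scores of the 10 pairs showed no common direction between replicates. On the log2 scale, the score of replicate 2 over that of replicate 1 had a median of 0.56 and ran from -0.87 to 3.21, with 6 pairs higher in replicate 2 and 4 higher in replicate 1. Over the 3621 overlapping sites of the whole list the median was -0.21. Both ends of a pair coincided in 1 case, and in all 10 pairs the overlap covered at least 50% of both sites. With 1 value per library, no difference in score between replicates was tested.

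**Figure D4:**
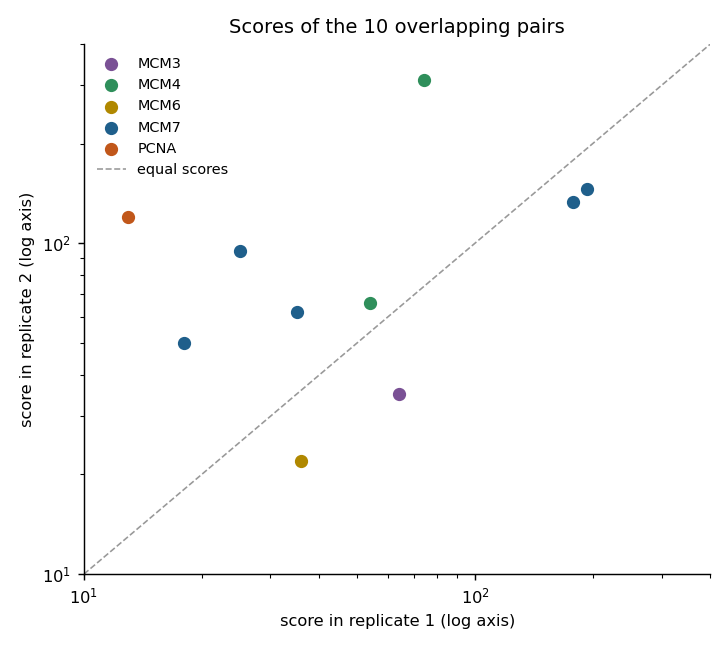
Score in replicate 1 against score in replicate 2 for the 10 overlapping pairs (both axes log), coloured by gene, with a dashed line of equal scores. The 2 strongest MCM7 pairs lie close to the line, and the PCNA pair, at 13 and 120, lies farthest from it.

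MCM7 is the shortest of the helicase genes here, and its sites ran over nearly the whole interval. In replicate 1 scores ran from 17 to 335 with a median of 35, and in replicate 2 from 12 to 289 with a median of 56. The strongest pairs lay next to each other on the minus strand of chromosome 7. The site at 99693459 to 99693485 scored 193 in replicate 1 and its partner at 99693467 to 99693484 scored 146 in replicate 2. The site at 99693418 to 99693433 scored 178 in replicate 1 and its partner, shifted by 1 nt, scored 133 in replicate 2. In both lists each of these sites scored above at least 91.6% of all sites.

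These pairs belonged to a dense stretch of 345 nt, from 99693417 to 99693761, with 3 sites in replicate 1 and 7 in replicate 2. All 3 sites of replicate 1 were shared, the weakest with scores of 18 in replicate 1 and 50 in replicate 2. The stretch carried 43.8% of the MCM7 score in replicate 1 and 30.4% in replicate 2; it was singled out after its values were seen, as the run of sites with gaps of at most 100 nt around the best pair.

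The highest single MCM7 sites were not shared. In replicate 1 the site at 99696317 to 99696331 scored 335, and the nearest site of replicate 2 lay 49 nt away with a score of 50. The highest site of replicate 2, at 99697090 to 99697103, scored 289 and lay 758 nt from the nearest site of replicate 1. A further pair, at 99693020 to 99693033 in replicate 1, scored 25 there and 95 in replicate 2. The last pair, at 99699946 to 99699960 in replicate 1, scored 35 there and 62 in replicate 2. It lay 0.0475 kb inside the 5′ edge of the interval, which is 787 nt longer than the GENCODE model of MCM7, so this pair may lie outside the gene.

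MCM7 is also the host gene of 3 microRNAs, MIR106B, MIR93 and MIR25, which are cut from an intron of its transcript on the same strand. A site within these microRNA genes may therefore belong to a microRNA precursor as well as to the MCM7 transcript. Their main mature forms are shown because they are the other RNA products of the densest interval, from RefSeq on GRCh38.p14, written 5′ to 3′ with the seed (bases 2 to 8) in capitals.
hsa-miR-106b-5p: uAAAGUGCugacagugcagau
hsa-miR-93-5p: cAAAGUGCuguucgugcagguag
hsa-miR-25-3p: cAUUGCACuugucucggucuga
The seeds of miR-106b-5p and miR-93-5p are the same 7 bases and that of miR-25-3p differs. The positions of the hairpins in hg19 were not used here, so sites were not assigned to them.

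**Figure D5:**
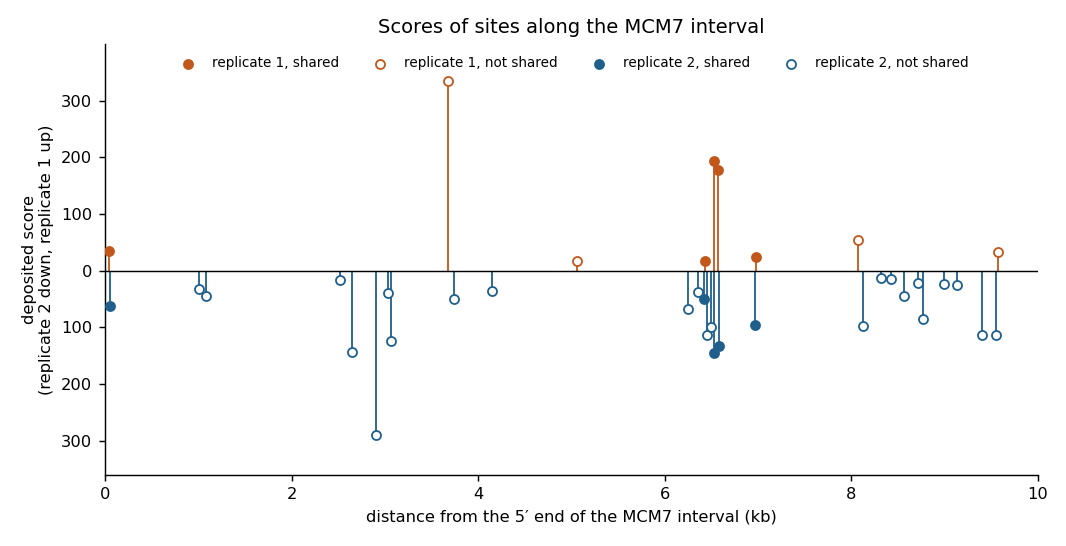
Deposited score of each MCM7 site against its distance in kb from the 5′ end of the interval, with replicate 1 drawn upwards and replicate 2 downwards; filled points are shared. The filled points near 6.5 kb mark the dense stretch, and the open points at 335 and 289 are the highest, unshared sites.

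MCM4, a subunit whose N-terminal tail is a target of the DDK kinase, had 2 sites in replicate 1 and both were shared. The plus-strand site of chromosome 8 at 48878923 to 48878939 had the same start and end in both lists. Its score was 74 in replicate 1 and 312 in replicate 2, the highest of any member site in that list. The second pair, at 48887476 to 48887494 in replicate 1, scored 54 there and 66 in replicate 2. The 15 sites of replicate 2 had scores of 8 to 312 with a median of 31, and 9 of them lay in the last of 3 equal parts of the interval.

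MCM3, on the minus strand of chromosome 6, had 2 sites in replicate 1, with scores of 64 and 61, and 12 in replicate 2, with scores of 8 to 299 and a median of 38. The pair at 52136224 to 52136238 shared its 5′ end and scored 64 in replicate 1 and 35 in replicate 2. The strongest site of replicate 2, at 52147513 to 52147526 with a score of 299, was 608 nt from the unshared site of replicate 1.

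MCM6 has the longest interval, 37 kb on the minus strand of chromosome 2, and after TOP2A the fewest sites per kb in replicate 2. Its 2 sites in replicate 1 scored 36 and 24, and its 9 sites in replicate 2 scored 7 to 133 with a median of 22. The pair, at 136623787 to 136623801 in replicate 1, scored 36 there and 22 in replicate 2, where it was 21 nt long instead of 15. The strongest site of replicate 2, at 136615542 to 136615557 with a score of 133, had its nearest replicate 1 site 8229 nt away.

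MCM2, which also binds histones H3 and H4 at the fork, and MCM5 had 1 site each in replicate 1, and neither was shared. The MCM2 site scored 84 and lay on chromosome 3, plus strand, 127341194 to 127341208. It lay 186 nt beyond the last of the 13 sites of replicate 2, which scored 8 to 169 with a median of 33. The strongest of them, at 127340858 to 127340879 with 169, was 314 nt from the replicate 1 site. Both lists thus had sites close to the 3′ end of the MCM2 interval without an overlap.

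The MCM5 site of replicate 1 scored 64 and lay on chromosome 22, plus strand, 35808564 to 35808577. MCM5 had the second largest number of sites in replicate 2, 16, with scores of 5 to 111 and a median of 20.5. The site with 111 lay at 35817491 to 35817504, in a group of 7 in the last part of the interval.

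PCNA had 2 sites in replicate 1, with scores of 31 and 13, and 6 in replicate 2, with scores of 28 to 206 and a median of 89. The pair on the minus strand of chromosome 20, at 5095835 to 5095850 in replicate 1, scored 13 there and 120 in replicate 2. That 9.23-fold difference was the widest of the 10 pairs. The highest site of replicate 2, at 5100553 to 5100566 with 206, was 72 nt from the other replicate 1 site, at 5100465 to 5100480. All PCNA sites of both lists lay at least 7.44 kb from the 5′ end of the 13 kb interval. A snoRNA gene, RF00568, lies within PCNA on its strand in the GENCODE models, and sites were not assigned to it.

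TOP2A, widely used as a marker of dividing cells, had the lowest density in replicate 2. Its site in replicate 1, on the minus strand of chromosome 17 at 38555708 to 38555723, scored 28, and the nearest of the 6 sites of replicate 2 was 589 nt away. Those 6 scored 9 to 147 with a median of 32, and 4 of them lay in the last of 3 equal parts of the interval. The site with 147, at 38545082 to 38545095, was the one nearest to the 3′ end. A misc_RNA gene, RF00019, lies within TOP2A on its strand in the GENCODE models.

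Summed over the genes, sites lay in all parts of the intervals. With each interval cut into 3 equal parts from 5′ to 3′, replicate 1 had 3, 10 and 7 sites and replicate 2 had 27, 30 and 48 sites. Single genes could lack sites in a part: PCNA had 0 in the first part in both replicates. The last part held 40.4% ± 7.58 of sites (SD, n = 2), with 35.0% in replicate 1 and 45.7% in replicate 2. MCM7 supplied 5 of the 10 sites in the middle part in replicate 1. Without it the counts were 2, 5 and 4 in replicate 1 and 19, 21 and 37 in replicate 2. No difference in position between the lists was tested. Exons, introns and untranslated regions were not assigned.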

How the data were processed

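Sites were read from the 2 lists the authors deposited, 1 per replicate, headerless files whose 6 columns give each site's position, name, score and strand. The deposited score is a whole number per site; how the authors computed it, the site caller and the thresholds are not given in these sources. Per the submitters' processing notes, bcl2fastq and Bowtie 1.1.2 were used with the build hg19. Libraries were amplified with 18 PCR cycles, per the labels' protocols, and duplicates may remain in the scores.

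Gene intervals in hg19 were given, and positions are counted from 1. Python 3.11.15, pandas 2.3.3 and numpy 2.4.6 were used for overlaps, distances and medians, Wilson and exact Poisson intervals (95%) came from scipy 1.17.1 and figures from matplotlib 3.10.9. A site was shared when a same-strand site of the other replicate covered at least 1 nt of it. A floor for a count of 0 is 3 counts. Overlaps and distances were tested on simulated data with set partners. No test between conditions was possible with 1 group. The genes were chosen with earlier results of these data known. All 8 were described, with their highest-scoring sites and every overlapping pair; for MCM7 the rule asked for 3 pairs and the other 2 were named after their values were seen. GENCODE 29 (GRCh38) supplied only names, strands and model lengths. Alternatives were only the upper scores of each list, leaving out each replicate, intervals shortened by 1 kb at both ends, a shortened replicate 2, other overlap rules, score per length and leaving out MCM7. A planned count over other replication genes was not run, because no hg19 annotation was used here.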

Additional observations from a re-analysis of the deposited data

How the results depend on the processing

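Of 34 values recomputed under alternatives other than leaving out a replicate, 33 stayed within 1 SD of the replicates or within the 95% interval of the value reported, which are wide with 2 libraries and 20 sites in replicate 1. The median score of member sites, 42 as a mean of both replicates, was 57 with only the upper-scoring sites of each list (from its median upwards), as that restriction dictates. Leaving out either of 2 replicates cannot move a mean beyond 1 SD and so does not bear on stability. It gave 0.110 to 0.579 sites per kb in the intervals, 0.0138 to 0.0607 in the flanks, 0.0265% to 0.117% of the score sum, median scores of 39 to 45 and 35.0% to 45.7% of sites in the last part. A gap of up to 50 nt raised the shared sites to 65.0% in replicate 1 and 15.2% in replicate 2, and limiting replicate 2 to its highest-scoring sites gave 45.0% and 15.0%, with 0.221 sites per kb against 0.345. Whole-list shares under these 2 changes were not computed. These member shares therefore cannot be set against the list values of the main rule. Flank density, 0.0372 per kb, was 0.0207 with the upper-scoring sites and 0.0104 without the downstream flank of MCM5, a change chosen after seeing the data. Leaving out MCM7, chosen after seeing the data for all results but density, gave 45.5% and 6.49% shared, 0.257 sites per kb and 0.0429% of the score sum, against 0.0716% with it. Leaving out a replicate leaves no overlap to compute. No paired analysis was possible because both libraries belong to 1 group. Depth is unknown, so a site missing from replicate 1 was not detected there and is not shown to be absent.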

Other observations

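Sites of replicate 2 ran on past the 3′ edge of the MCM5 interval. On the plus strand of chromosome 22, the next 25 kb had 20 sites of replicate 2 and 0 of replicate 1, and the opposite strand held 0 in both. They began 9 nt beyond the edge, with 4, 6, 3, 6 and 1 sites in successive stretches of 5 kb, and 2 of them scored at least 100. From 25 to 100 kb beyond the edge, 3 sites were listed in replicate 1 and 7 in replicate 2, again with 0 on the opposite strand. Of these, 1 was shared, at 35846058 to 35846076 in replicate 1, with scores of 77 in replicate 1 and 51 in replicate 2. These sites supplied 20 of the 22 flank sites of replicate 2 over all 8 genes. On GRCh38 the RefSeq model of MCM5 spans 54892 nt and the GENCODE model 25368 nt, so the count for MCM5 depends on which model sets its end. Whether these sites belong to MCM5 RNA was not tested.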
